A study of Sus scrofa with 4 samples.

Results

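The genes described here are 41 genes of glycolysis, pyruvate use and lactate handling, taken by symbol from the RefSeq annotation of the pig genome, Sscrofa11.1, where all 41 symbols were found among 16303 named protein-coding genes. They cover glucose uptake, each enzymatic step from glucose to pyruvate, lactate dehydrogenase, the carriers and enzymes that move pyruvate and lactate or send pyruvate into the mitochondrion, the hypoxia factor HIF1A and the glyoxalase pair GLO1 and HAGH. Histone H4 lysine 12 lactylation (H4K12la) was mapped by ChIP-seq in liver of late-gestation sows, in a high bile acid group and a low (normal) bile acid group. Each group has 1 immunoprecipitated library and 1 input library. All samples are labelled female liver with hepatocytes as the cell type; the sources used here do not give how the groups were formed or how many sows stand behind a library. With 1 library per group there is no replicate check, and no p-value between the groups was computed.

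Glycolysis splits glucose into pyruvate, and lactate dehydrogenase converts pyruvate to lactate and back. The liver takes up lactate from the blood and can turn it into glucose, so many of these enzymes work in either direction in hepatocytes. Lysine lactylation is made from lactate by the cell, which places these genes upstream of the mark that was mapped. The glyoxalases are a second route: they detoxify methylglyoxal, a by-product of glycolysis, through lactoylglutathione to D-lactate.

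The deposited data are a list of called peaks per immunoprecipitated library, 28283 for the high bile acid liver (the high list) and 5735 for the low one (the low list), a ratio of 4.93. The fold of a peak is the authors' ratio of its summit to the local background, and q is their adjusted value against the input of the same library. In the formula used to recover fragments, 1 is added to both terms of the fold. The fold is therefore below the fragments divided by the expected fragments. Peaks were of like strength, with a high-list median fold of 2.90 and a low-list median of 2.98. As recovered from fold and p, the fewest fragments expected at a summit were 1.98 in the high library and 2.20 in the low library, so the library with the shorter list was the deeper of the pair by this measure. In the low list 97.4% of peaks had a q of 1, beside 0.0% in the high list. A q under 0.05 was held by 608 of 28283 high-list and 13 of 5735 low-list peaks. A peak was assigned to a gene by its summit. It counted at a gene end within 1 kb of either end, in the gene body between the ends, and near the gene inside it or within 10 kb. Strand was not used, so a gene end may be the start or the end of transcription. Marker genes of the labelled cell type were also counted. A high-list peak at a gene end was carried by 2 of 18 hepatocyte markers (CYP7A1 and TTR), and a low-list one by 0. Coding genes of like length gave 17.3% and 3.11%. The hepatocyte counts were not above these shares, so the labelled cell type cannot be judged from them. For the high list the same counts were 0 of 8 Kupffer and myeloid, 0 of 8 stellate and fibroblast, 1 of 6 endothelial, 1 of 5 cholangiocyte and 3 of 7 lymphocyte markers, and for the low list 0 in each. Coding genes of like length gave 15.9 to 17.4% in the high list and 2.81 to 3.37% in the low list over these 5 marker lists. The 3 lymphocyte markers rest on 2 peaks, since CD3D and CD3G share 1.

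In each window the share of these genes with a high-list peak was close to that of coding genes of like length, and the share with a low-list peak was above it by count. Like length means the share over all coding genes, averaged over the 10 classes of gene length into which the 41 fall. At gene ends, 8 of the 41 genes carried a high-list peak (19.5%; exact Clopper-Pearson 95% interval 8.82 to 34.9%), beside 16.5% of all named coding genes and 16.8% of those of like length. In the low list 4 did (9.76%; 2.72 to 23.1%), beside 3.13% of all coding genes and 3.17% at like length, which the interval holds. In gene bodies the counts were 19 in the high list (46.3%; 30.7 to 62.6%) and 10 in the low list (24.4%; 12.4 to 40.3%). All coding genes gave 44.5% and 14.9%, and like length gave 40.5% and 11.0%. Of these shares only the 11.0% lay outside its interval, in a window whose high low-list count was known when the genes were chosen. Near the genes, 28 had a high-list peak (68.3%; 51.9 to 81.9%) and 13 a low-list peak (31.7%; 18.1 to 48.1%), beside 62.5% and 21.9% of all coding genes, and 60.4% and 18.5% at like length, each of them inside its interval. The windows share peaks and are not separate observations. The 4 low-list gene-end peaks all lie inside their genes and are among the 10 in gene bodies, which are among the 13 near the genes. The low-list gene-body count came closer to the share of all coding genes under stricter rules. It was 4 of 41 at a fold of 3 or more, beside 8.05%, 5 of 41 at a p of 0.001 or less, beside 9.7%, and 6 of 41 without the outer 1 kb of each gene, beside 13.3%. Like-length shares were not computed under these rules, and over all peaks the like-length share was the lower one (11.0% beside 14.9%). With the gene-end window narrowed to 500 bp, the low-list gene-end count stayed at 4 of 41, beside 1.63% of all coding genes. The intervals cover counting error only. The genes were chosen with earlier results of these lists known, among them a high low-list count in gene bodies, so the counts are a description of these 2 libraries.

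**Figure D1:**
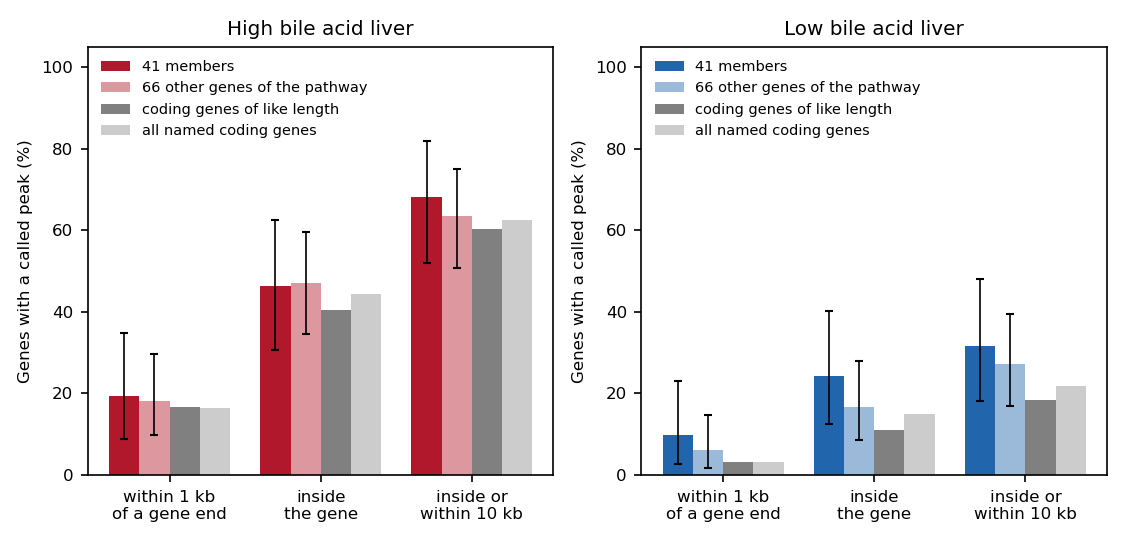
Share of genes with a called H4K12la peak (percent) in 3 windows, for the 41 genes, 66 other genes of the pathway, coding genes of like length and all named coding genes; error bars are exact Clopper-Pearson 95% intervals, which cover counting error only. In the high bile acid liver (left) the bars of each window are close, and in the low bile acid liver (right) the 41 genes reach 24.4% in gene bodies, beside 11.0% at like length.

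Of the properties of the genes, only length was held like. The 41 genes had a median length of 21.5 kb (3.38 to 159 kb), beside 25.6 kb for all named coding genes. Their bodies cover 1.29 Mb and held 36 high-list summits, a density of 27.8 per Mb, and 10 low-list summits, a density of 7.73 per Mb. Over all coding genes the densities were 14.6 and 2.88 per Mb. At the density of their own length classes, bodies of these lengths would hold 26.5 high-list and 4.77 low-list summits. Since the lists differ in length, the high list was also shortened to 5735 peaks by smallest p. It then held peaks at the ends of 1 of the 41 genes (HIF1A), in the bodies of 7 and within 10 kb of 9, where the low list held 4, 10 and 13. All coding genes gave 4.62%, 15.8% and 23.9% for the shortened high list. By the caller's p, the shortened list ended at 4.29e-05 and the low list at 0.00989, so the counts are not at a like threshold. The 7 were HK1, PFKP, PFKFB3, PFKFB4, SLC16A3, SLC16A7 and HIF1A, and 3 of them (PFKP, PFKFB3 and SLC16A7) were also among the 10.

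The 10 genes with a low-list peak in the gene body were GPI, PFKL, PFKP, PFKFB2, PFKFB3, PGAM1, ENO1, PKM, SLC16A7 and HAGH. Of these, 6 encode enzymes or subunits of the steps from glucose phosphate to pyruvate, PFKFB2 and PFKFB3 encode regulators of phosphofructokinase, SLC16A7 a lactate carrier and HAGH a glyoxalase. Each had 1 low-list summit in its body. A high-list peak lay in the body of 6 of the 10, beside 1705 of the 2429 coding genes with a low-list gene-body peak (70.2%). Of the other 4, PFKFB2 and PFKL had a high-list peak within 10 kb while PGAM1 and PKM had none. No high-list peak of any of the 41 genes overlapped a low-list peak, by 1 bp or more. Overlap was rare in the whole lists too, with 207 of 28283 high-list and 208 of 5735 low-list peaks.

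GPI encodes the isomerase between glucose phosphate and fructose phosphate and lies at chromosome 6, 44038374 to 44069331. Its high-list peak lies in the interior at 44063955 to 44064324, with a fold of 2.58 (q 0.5) on 7 fragments. The low-list peak spans 44038578 to 44038913, 356 bp inside the lower gene end, with a fold of 3.30 (q 1) on 11 fragments (exact Poisson 95% interval 5.49 to 19.7) over 2.55 expected. The peaks stand at opposite parts of the gene, 25478 bp apart by summit.

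The phosphofructokinase genes encode the subunits of the committed step of glycolysis. PFKL, the liver subunit, lies at chromosome 13, 207167287 to 207191688. It had no high-list peak in the gene and 2 outside it, both of fold 2.34 (q 0.548), 9219 and 8151 bp from the nearest end, where they lie in AIRE and C13H21orf2. Its low-list peak at 207167712 to 207168010 was 476 bp inside the lower end, with a fold of 2.98 (q 1) on 9 fragments over 2.27 expected. PFKP, the platelet subunit, at chromosome 10, 67022652 to 67082336, had 4 high-list peaks in the gene with folds of 2.45 to 3.16, and 2 beyond its upper end. The stronger of those 2 had a fold of 4.03 (q 0.0735) on 11 fragments, the highest fold among the 41 genes. The low-list peak of PFKP at 67026336 to 67026789 had a fold of 2.89 (q 1) on 12 fragments over 3.41 expected, 3930 bp from the lower end. PFKM, the muscle subunit, had 1 high-list peak of fold 3.12 (q 0.232), 2766 bp away in ASB8, and no low-list peak.

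The 4 PFKFB genes encode bifunctional enzymes that make and break the sugar bisphosphate that activates phosphofructokinase. PFKFB2, at chromosome 9, 67681786 to 67716921, had a high-list peak 857 bp outside its lower end, with a fold of 3.23 (q 0.232) on 10 fragments; its summit also lies in YOD1, within 1 kb of an end of that gene. Its low-list peak at 67698530 to 67698854 lies near the middle of the gene, with a fold of 3.67 (q 1) on 13 fragments (6.92 to 22.2) over 2.72 expected. That was the highest low-list fold among the 41 genes. PFKFB3, at chromosome 10, 64776315 to 64859118, had 5 high-list peaks in its body, the most of any of the genes, with folds of 2.08 to 3.38. Among them, the peak at 64858113 to 64858407 was a gene-end peak, 763 bp inside the upper end, with a fold of 2.32 (q 0.711) on 6 fragments. The 1 low-list peak of PFKFB3, 4676 bp from the lower end, had a fold of 3.27 (q 1) on 11 fragments. PFKFB4 had 3 high-list peaks in the gene, the strongest of fold 3.64 (q 0.0735) on 13 fragments, 2 outside it within SHISA5, and no low-list peak. PFKFB1, the liver isoform, is on chromosome X and lacked a peak within 10 kb in both lists.

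Mutases and enolases act on the intermediates between the triose phosphates and pyruvate. PGAM1, which encodes a phosphoglycerate mutase, lies at chromosome 14, 108822782 to 108832818, and had no high-list peak within 10 kb. A low-list peak at 108824297 to 108824648 had a fold of 2.63 (q 1) on 9 fragments over 2.72 expected, 1621 bp from the lower end. PGAM2, the muscle form, had 1 high-list peak of fold 2.85 (q 0.33) in its body and no low-list peak. ENO1, the common enolase, at chromosome 6, 69385879 to 69401664, showed the closest approach of peaks from both lists. The high-list peak had a fold of 2.71 (q 0.407) on 8 fragments, 1042 bp inside the upper end. The low-list peak had a fold of 2.80 (q 1) on 9 fragments, 205 bp inside the same end, and the summits were 837 bp apart. ENO2 had 2 high-list peaks outside the gene, the stronger of fold 3.38 (q 0.139), and no low-list peak. ENO3 had a high-list peak 965 bp beyond its upper end, with a fold of 2.50 (q 0.381) on 11 fragments over 3.80 expected, and no low-list peak. At 1113 bp it was the widest peak at any of the 41 genes. Further high-list peaks of ENO3 lay 8240 and 6178 bp outside it in CAMTA2, with folds of 2.49 and 2.80.

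The pyruvate kinases, which make pyruvate in the last step of glycolysis, differed in which list held their peak. PKLR encodes the liver enzyme and lies at chromosome 4, 94536978 to 94546561. It had a high-list peak at 94537208 to 94537645, 435 bp inside the lower end, with a fold of 2.60 (q 0.429) on 9 fragments over 2.85 expected, and no low-list peak; the summit also lies in LOC102165794. PKM, the form of muscle and proliferating cells, at chromosome 7, 60971807 to 61032780, had no high-list peak within 10 kb. Its low-list peak at 61003580 to 61003952 lies near the middle of the gene, with a fold of 2.45 (q 1) on 10 fragments over 3.41 expected, the lowest fold of the low-list peaks at the 41 genes. GAPDH, TPI1, ALDOC and PGK1, which encode enzymes of other steps, lacked peaks within 10 kb in both lists, and ALDOA had 1 high-list peak of fold 2.37 (q 0.561) in its body.

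**Figure D2:**
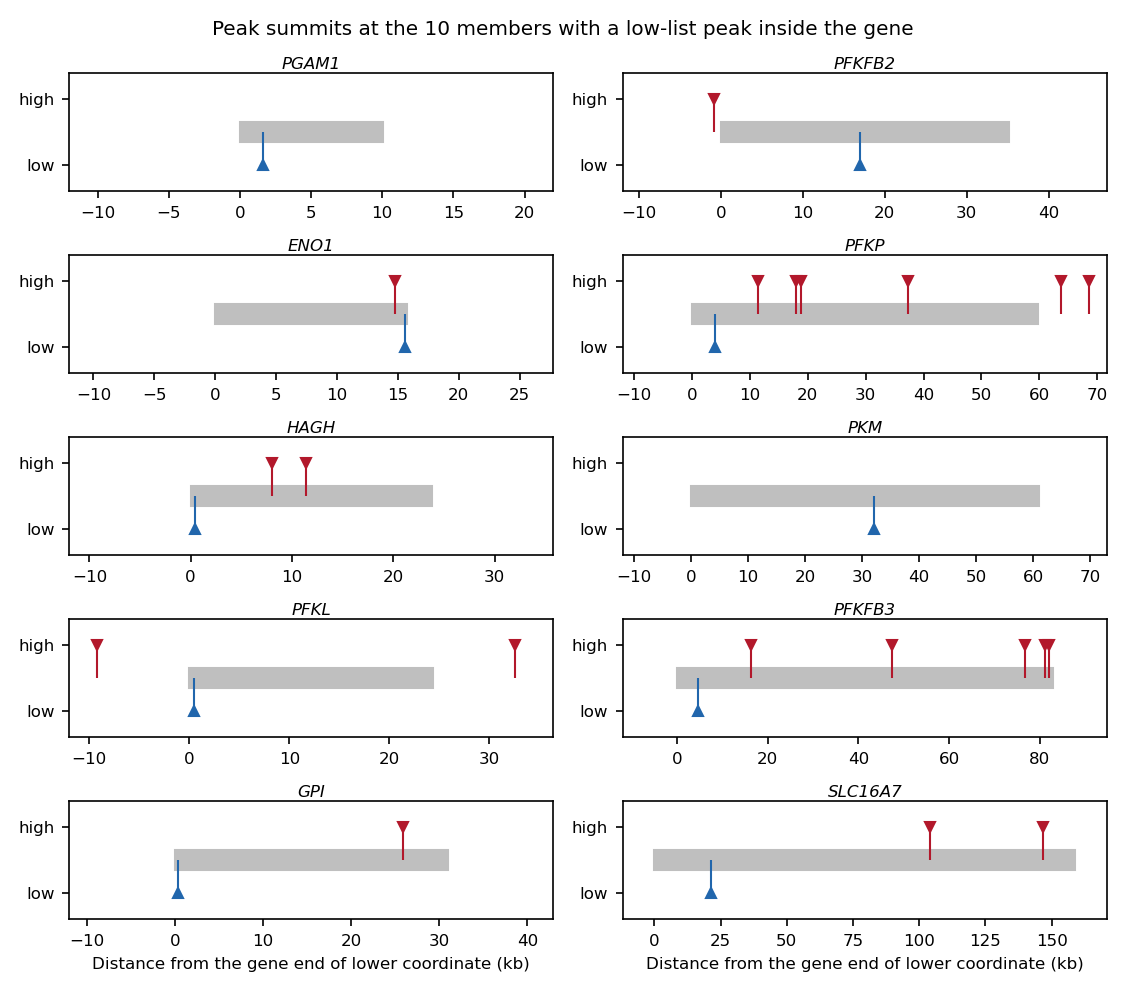
Peak summits of the high list (red, above) and the low list (blue, below) at the 10 genes with a low-list peak in the gene body; the grey bar is the gene, and the horizontal axis gives the distance in kb from the gene end of lower coordinate. Each gene has 1 low-list summit, PGAM1 and PKM have no high-list summit in the range shown, and the closest pair is that of ENO1, 837 bp apart.

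Positions within the genes were compared next. Of 36 high-list summits in the gene bodies, 3 (8.33%) lay within 1 kb of an end, and of 10 low-list summits 4 (40.0%) did. Over all named coding genes the shares were 10.9% (high list) and 9.74% (low list). The 4 were those of GPI, PFKL, ENO1 and HAGH, and all 4 lay within 500 bp of the end. Without the outer 1 kb at each end, 17 of the 41 genes had a high-list peak in the body, beside 38.7% of coding genes, and 6 had a low-list peak, beside 13.3%. With the gene-end window narrowed to 500 bp, 2 of the 41 genes had a high-list peak, beside 9.28% of coding genes, and 4 had a low-list peak, beside 1.63%. The 2 of the high list were PKLR and SLC16A1, and HIF1A at 507 bp fell just outside. Counted by relative position, a measure chosen after the values were seen, the outer 20% of the gene at each end held 18 of 36 high-list summits (50.0%) and 8 of 10 low-list summits (80.0%). The summits of all coding genes gave 46.0% and 45.4%. The difference in position between the lists was not tested.

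Lactate dehydrogenase genes had no peak in a gene body in either list. LDHA, which encodes the subunit that favours lactate formation, lies at chromosome 2, 40814163 to 40827284. Its high-list peak is 4361 bp outside the gene, inside the neighbouring LDHC, 312 bp from an end of that gene, with a fold of 2.34 (q 0.548) on 8 fragments over 2.85 expected, and the gene had no low-list peak. LDHB, whose subunit favours pyruvate formation, lacked a peak within 10 kb in both lists. The symbol LDHB stands at 2 loci in the annotation, at chromosome 5, 51810932 to 51831218, and at a locus of 1280 bp on chromosome 2, and neither had a peak. LDHD, the D-lactate dehydrogenase, had 2 high-list peaks outside the gene, at 2170 and 6865 bp, with folds of 2.60 and 2.70, and no low-list peak.

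The monocarboxylate carriers, which move lactate and pyruvate across the cell membrane, all had high-list peaks. SLC16A1, which encodes MCT1, at chromosome 4, 107510920 to 107547609, had 2 at its lower end. One spans 107510730 to 107511028 with its summit 63 bp outside the gene, the smallest distance at any of the 41 genes, and had a fold of 3.03 (q 0.274) on 9 fragments over 2.30 expected. The other had a fold of 2.29 (q 0.5), and both summits also lie in LRIG2. SLC16A1 had no low-list peak. SLC16A3, which encodes MCT4, the carrier of lactate export from glycolytic cells, had 8 high-list peaks within 10 kb, more than any of the other genes, and no low-list peak. Only 2 of the 8 lie in its body of 10.6 kb, with folds of 3.48 (q 0.139) and 2.90 (q 0.33). The strongest lies 7573 bp beyond the gene, with a fold of 3.94 (q 0.0735) on 11 fragments over 2.04 expected. SLC16A3 is on chromosome 12, which held 1425 high-list and 226 low-list peaks. SLC16A7, which encodes MCT2, is the longest of the 41 genes at 159 kb and had 2 high-list peaks in its body, with folds of 3.69 (q 0.139) and 3.09 (q 0.258). Its low-list peak had a fold of 2.60 (q 1) on 8 fragments, 21295 bp from the lower end.

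Genes of pyruvate entry into the mitochondrion were next. PDHB, the beta subunit of pyruvate dehydrogenase, which turns pyruvate into acetyl-CoA, had a high-list peak of fold 3.12 (q 0.232) in the gene and another of fold 2.34 (q 0.548) 669 bp outside its upper end, and no low-list peak. PDHA1, the alpha subunit, is on chromosome X. It had no high-list peak and 1 low-list peak of fold 2.74 (q 1) on 8 fragments, 3029 bp from the gene. Of the kinases that switch pyruvate dehydrogenase off, PDK2 had 1 high-list peak in the gene (fold 2.27) and 3 outside it, and no low-list peak. PDK1 had no high-list peak and 1 low-list peak 8154 bp outside the gene (fold 3.33, q 1), and PDK4 had none within 10 kb in either. MPC1, a subunit of the mitochondrial pyruvate carrier, had a high-list peak of fold 2.68 (q 0.5) in the gene, a second one outside it, and a low-list peak 7280 bp outside it of fold 2.63 (q 1). MPC2, the other subunit, had none in either list.

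HIF1A, which encodes the hypoxia-inducible factor that switches on glycolytic genes, carried the strongest high-list peak at a gene end among the 41 genes and no low-list peak. The gene lies at chromosome 1, 190625436 to 190673926, and the peak at 190625797 to 190626147 had a fold of 3.41 (q 0.139) on 11 fragments (5.49 to 19.7) over 2.52 expected. The glucose carriers and hexokinases, which bring glucose in and trap it as a phosphate, had high-list peaks only. HK1 had a gene-end peak of fold 2.44 (q 0.429), 784 bp outside its lower end, and 4 interior peaks, the strongest of fold 3.69 (q 0.139). HK2 and HK3 had 2 interior peaks each, with folds of 2.47 and 2.51 at HK2 and of 3.05 and 2.63 at HK3. Outside the genes, HK1 had a further peak of fold 2.77 (q 0.33) in TACR2, and HK3 its strongest, of fold 3.69 (q 0.139), in UIMC1. SLC2A2, the glucose carrier of hepatocytes, had 1 interior peak of fold 2.16 (q 0.711) on 6 fragments, the fewest at any of the genes and equal to 1 peak each of PFKFB3 and SLC16A3, and SLC2A1 had 1 peak 1384 bp outside the gene (fold 2.90, q 0.33).

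The glyoxalase genes differed. HAGH, whose enzyme releases D-lactate from lactoylglutathione, lies at chromosome 3, 40139099 to 40162921. It had 2 interior peaks in the high list, with folds of 2.89 (q 0.301) and 2.84 (q 0.33). Its low-list peak at 40139311 to 40139625 was 453 bp inside the lower end and had a fold of 3.63 (q 1) on 12 fragments (6.20 to 21.0) over 2.48 expected, the strongest low-list gene-end peak of the 41 genes. GLO1, which makes lactoylglutathione, had none within 10 kb in either.

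**Figure D3:**
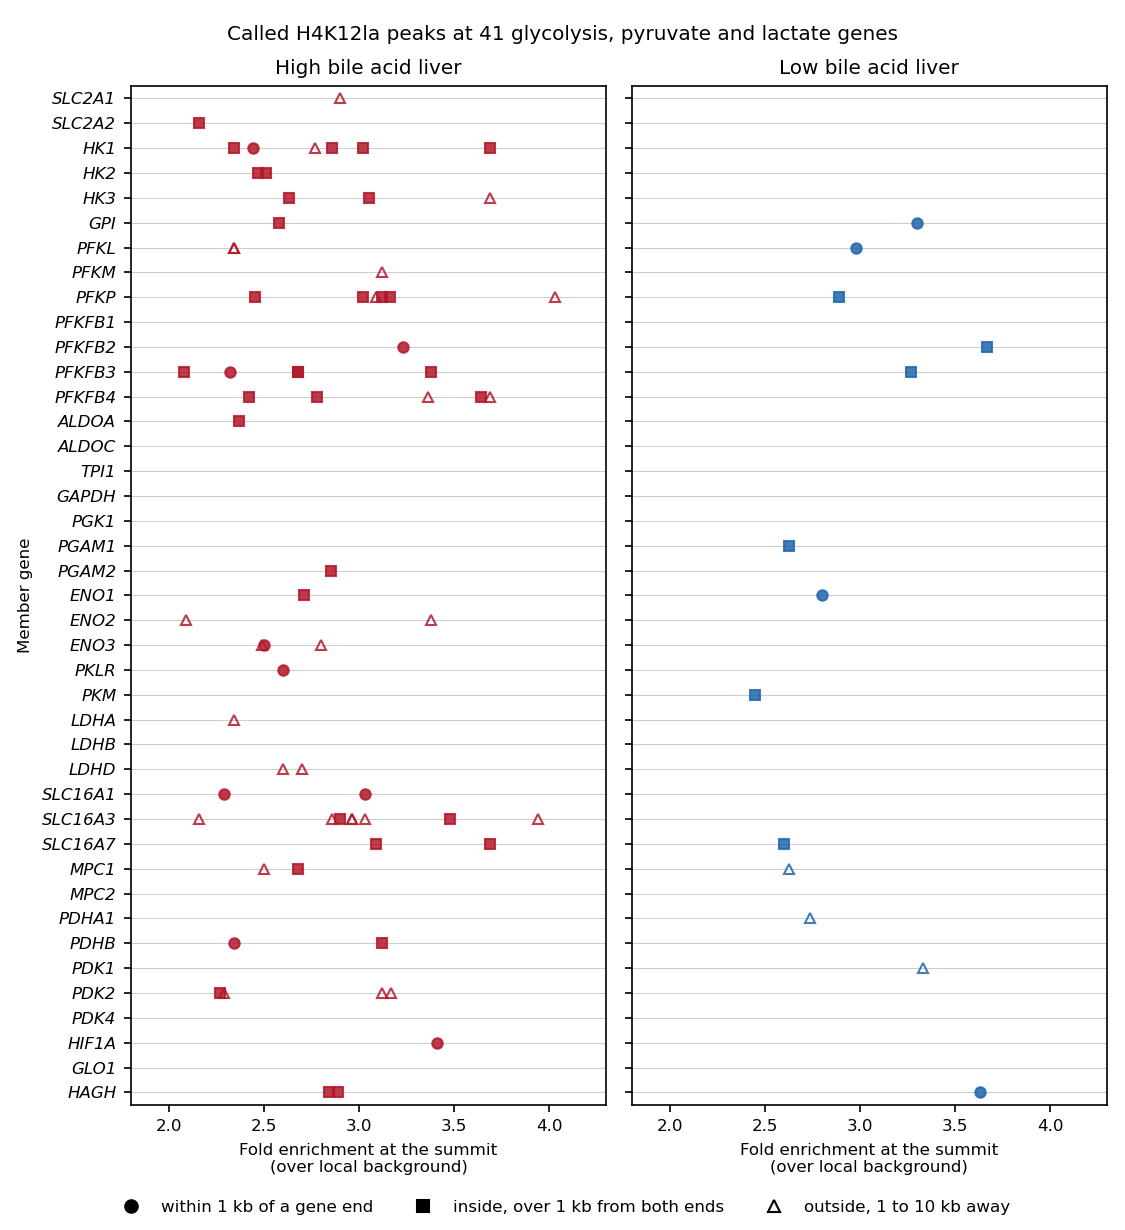
Fold enrichment at the summit of each called peak within 10 kb of the 41 genes, with 1 row per gene, in the high bile acid liver (left, 69 peaks) and the low bile acid liver (right, 13 peaks); filled circles are summits within 1 kb of a gene end, filled squares lie inside the gene over 1 kb from its ends, and open triangles lie outside it. Folds run from 2.08 to 4.03 in the high list and from 2.45 to 3.67 in the low list, and 9 genes have no peak in either.

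Over all 41 genes, 69 high-list peaks and 13 low-list peaks lay within 10 kb. Their median fold was 2.84 in the high list (2.08 to 4.03) and 2.89 in the low list (2.45 to 3.67), close to the medians of the whole lists. They rested on 6 to 13 fragments at the summit in the high list and on 8 to 13 in the low list. None passed a q of 0.05: the smallest q was 0.0735 in the high list, at PFKP, PFKFB4 and SLC16A3, and all 13 low-list peaks had a q of 1. Of the 41 genes, 9 had peaks of both lists within 10 kb, 19 had high-list peaks alone, 4 had low-list peaks alone (PGAM1, PKM, PDHA1 and PDK1) and 9 had neither. These are 22.0%, 46.3%, 9.76% and 22.0% of the genes, beside 16.5%, 46.0%, 5.39% and 32.1% of all coding genes. The 9 without a peak were PFKFB1, ALDOC, TPI1, GAPDH, PGK1, LDHB, MPC2, PDK4 and GLO1. Among them PFKFB1 and PGK1 are on chromosome X, where the lists hold 53 high-list and 4 low-list peaks in all. At gene ends 0 genes had peaks of both lists, 8 had a high-list peak alone and 4 a low-list peak alone, beside 0.736%, 15.8% and 2.4% of all coding genes.

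A peak called for 1 liver alone is a difference between calls, and occupancy itself was not compared by a test. The number of fragments that the other library would have needed for a call was computed at its own depth, for a p under 0.01. For none of the 69 high-list peaks did the 95% interval of the fragment count, rescaled to the low library, lie at or above the number needed there. None of the 13 low-list peaks did so for the high library. The same count was not made over the whole lists, so it cannot be read as a property of these genes. Median fragments at the summit were 9 both for the 69 high-list peaks and for the whole high list. For the 13 low-list peaks and the whole low list the median was 10. At HIF1A, the 11 high-library fragments correspond to 12.2 at the depth of the low library (6.11 to 21.9), where 8 were needed. At HAGH, the 12 low-library fragments correspond to 10.8 at the depth of the high library (5.58 to 18.8), where 6 were needed. The count of the other library at these sites is not in the lists, so a difference between the livers was not detectable from these peaks.

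**Figure D4:**
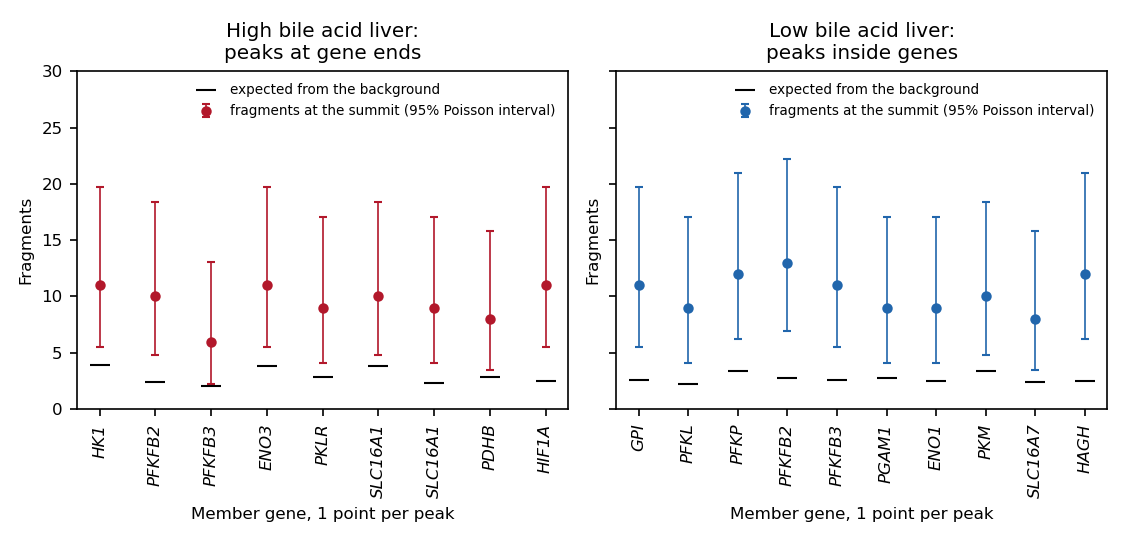
Fragments at the summit (points, with exact Poisson 95% intervals that cover counting error only) and fragments expected from the background (dashes), for the 9 high-list peaks at gene ends (left) and the 10 low-list peaks in gene bodies (right), with 1 point per peak. Counts run from 6 to 11 in the high list and from 8 to 13 in the low list. The panels hold different sites, each at the depth of its own library, so they do not compare the livers.

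Other genes of the pathway were counted in the same way, from a list of 68 symbols of which 66 were found. The list adds further isoforms, carriers, phosphatases and gluconeogenic enzymes, and genes of oxygen sensing. At gene ends, 12 of 66 had a high-list peak (18.2%) and 4 a low-list peak (6.06%), beside 16.8% and 3.16% at like length. In gene bodies the counts were 31 (47.0%) and 11 (16.7%), beside 42.7% and 12.5% at like length. Within 10 kb they were 42 (63.6%) and 18 (27.3%), beside 61.2% and 19.6%. The bodies of these 66 genes held 53 high-list and 16 low-list summits, beside 47.8 and 8.97 at the density of their length classes. The strongest high-list gene-end folds were those of the carriers SLC16A12 (3.36, q 0.232) and SLC16A6 (3.22, q 0.232), DLD (3.03), which encodes a subunit of the pyruvate dehydrogenase complex, and the alanine aminotransferases GPT (3.01) and GPT2 (2.86). In the low list they were PDPR (3.86, q 1), which encodes the regulatory subunit of pyruvate dehydrogenase phosphatase, GPD2 (3.11), the mitochondrial glycerol phosphate dehydrogenase, PDP1 (2.89), the catalytic subunit of that phosphatase, and the lactate receptor HCAR1 (2.66). At PDPR a high-list peak of fold 2.60 (q 0.429) overlapped the low-list peak, the one gene-end overlap among these 66 genes.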

How the data were processed

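H4K12la ChIP-seq peaks of 1 high and 1 low (normal) bile acid liver library were analysed; the 2 input libraries enter through the calling. The submitters' processing notes name MACS2 2.1.0, Bowtie 1.1.2, Trimmomatic 0.33 and bcl2fastq 2.17, with builds hg38 and Sscrofa11.1. Coordinates are on Sscrofa11.1. Peaks were called per library. In the deposited lists the fold enrichment (a ratio over the local background), the −log10 p-value and the −log10 q-value are the authors' values; the deposited score, a display value, stayed unused. The largest p was 0.00989 in both lists, and the sources used here give no cutoff.

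Genes were taken from RefSeq's Sscrofa11.1 table (28210 genes on chromosomes 1 to 18, X and Y), with the longest locus kept per symbol. The gene lists and windows were chosen with earlier results of these data known. The comparison with random genes of like length was made as the share over all coding genes in 10 classes of gene length. The rule for named genes took each gene with a gene-end or gene-body peak, 12 set genes and those without a peak; the table of other genes gives up to 5 per list by gene-end fold. No sequence was used, so the planned promoter motifs were not run.

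Fragments at the summit were solved from fold and p, with whole numbers for all but 1 peak in each list (tolerance 0.002 in −log10 p); the low library's pileup had been multiplied by 0.8806. The formula that the solver inverts adds 1 to both terms of the fold. The solver was tested on data simulated with that formula, so the formula itself was not checked. The smallest counts met here were not simulated. A peak needs a p under 0.01 in the limits given. The high list was shortened to the low list's length by p, where 235 of 1491 tied peaks were kept. Ties were broken by fold, then by chromosome name as text and by start. Counts for the shortened list can therefore depend on chromosome order. Python 3.11.15, pandas 2.3.3, NumPy 2.4.6 and SciPy 1.17.1 were used.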

Additional observations from a re-analysis of the deposited data

How the results depend on the processing

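No paired analysis was possible because 1 library per group leaves no pairs. Depth limits each peak: 6 to 13 fragments in the high library and 8 to 13 in the low library. Counts of the 41 genes are given as high list, then low list. At a fold of 3 or more they fell to 3 and 2 at gene ends, 9 and 4 in gene bodies and 14 and 5 within 10 kb, beside 8.28% and 1.52%, 27.3% and 8.05%, and 40.2% and 11.6% of all coding genes. At q under 0.05 all 6 counts were 0, beside 0.736% and 0.0% of all coding genes at gene ends, 2.12% and 0.0307% in gene bodies, and 3.59% and 0.0613% within 10 kb. At p of 0.001 or less, the low-list counts were 2 at gene ends, 5 in gene bodies and 7 within 10 kb, beside 1.89%, 9.7% and 14.2%. With the high list cut to the low list's length by p, the high-list counts were 1 at gene ends, 7 in gene bodies and 9 within 10 kb, beside 4.62%, 15.8% and 23.9%. These falls come with fewer peaks. A gene-end window of 3 kb gave 18 for the high list, beside 30.3%, and a window of 500 bp gave 2, beside 9.28%. Without the outer 1 kb of each gene, low-list gene bodies counted 6 of 41, beside 13.3% of coding genes. The other 24 alternatives moved the counts by at most 1.5 times; among them were any overlap in place of the summit, and autosomes only. Genes with overlapping peaks of both lists numbered 0 under all 3 rules. Overlap by 1 bp or more was rare in the whole lists too (208 of 5735 low-list peaks).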
